A study of Mus musculus with 4 samples.

Results

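The small leucine-rich proteoglycans (SLRPs) are secreted matrix proteins, and 10 of their genes were followed here by name: Dcn, Bgn, Aspn, Ecm2, Fmod, Lum, Prelp, Kera, Omd and Ogn. All 10 were present among the 54532 genes of the count table, and 9 of them passed a filter of a mean of at least 1 in counts scaled to a common library size (CPM) over the libraries, as did 13233 genes in all. Kera did not pass. The list is one of family membership, with no threshold on level or change. It leaves out other genes of the family, which are described apart below, and it was chosen with earlier results of these data known.

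SLRPs have a core of leucine-rich repeats, and many carry sugar chains of chondroitin, dermatan or keratan sulfate. They bind collagen fibrils and help to set fibril width and spacing, and several bind growth factors of the TGF-beta and BMP families. In bone, biglycan, decorin, osteoglycin (mimecan) and osteoadherin (encoded by Omd) are parts of the matrix that osteoblasts lay down.

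The measurements were mRNA counts from C3H10T1/2 cells, a mouse mesenchymal stem cell (MSC) line that can be turned into bone, cartilage or fat cells in culture. For 48 h the cells were given either a control siRNA or siRNA against DNMT1, a DNA methyltransferase that keeps methylation in place as cells divide. The group called control received the control siRNA and no induction, and siDNMT1 received the DNMT1 siRNA and no induction. The group OB received the control siRNA and then 3 days of osteoblast (OB) induction in medium with 50 µM ascorbic acid, 10 mM glycerophosphate and dexamethasone, and siDNMT1_OB received the DNMT1 siRNA and then the same induction. Each group held 1 library from 1 cell line, so no difference between these libraries has a replicate check, and intervals below cover counting error only. Which of the DNMT1 siRNAs listed in the study's methods was used for these libraries was not stated. The components of the induction medium cannot be told apart, and neither can they be told apart from time in culture where uninduced cells were collected before induction.

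Dnmt1, the targeted gene, was at 265 CPM (control), 132 (siDNMT1), 85.4 (OB) and 93.1 (siDNMT1_OB). It was lower in siDNMT1 than in control, at a log2 fold change of −1.01 (95% counting interval −1.07 to −0.95). Against OB, the library labelled siDNMT1_OB showed no loss of Dnmt1 (0.13, 0.04 to 0.21), so each direction drawn from the library labelled siDNMT1_OB rests on its label alone. Total counts ranged from 22296046 to 27367792, and mitochondrial transcripts held 2.53% to 2.83% of counts. All 10 mesenchymal or fibroblast markers passed the filter, with a summed level of 27988 to 34426 CPM. Of 8 osteoblast markers 4 passed, with a sum of 636 CPM (control), 309 (siDNMT1), 291 (OB) and 367 (the library labelled siDNMT1_OB). Osteopontin (Spp1) alone held 548, 206, 187 and 271 of this, and the other 7 markers summed to 88.2, 103, 104 and 95.5 CPM in the same order. Alkaline phosphatase (Alpl) had at most 2 counts and osteocalcin (Bglap) at most 3 in any library, so the OB libraries held almost none of these osteoblast markers. Of the chondrocyte, adipocyte and tendon lists 6 of 8, 4 of 6 and 6 of 7 markers passed, respectively. The adipocyte sum was higher in the induced libraries (101 and 92.9 CPM) than in the uninduced ones (41.2 and 45.1), and the tendon sum was lower (70.8 and 85.0 against 250 and 223), a difference that lay mostly in Egr1, without which the tendon sum was 49.9 to 64.0. The chondrocyte sum, mostly Col2a1, was 394 CPM (control), 532 (siDNMT1), 230 (OB) and 537 (the library labelled siDNMT1_OB). Without Col2a1 it was 3.98, 7.26, 22.82 and 20.96 CPM in the same order. This remainder was thus higher in both induced libraries than in both uninduced ones. The summed levels of the haematopoietic, endothelial and epithelial lists were at most 3.27, 7.81 and 1.07 CPM, with 1 of 6, 1 of 4 and 0 of 5 markers past the filter, and Adgre1, Epcam, Krt18, Acan and Plin1 had no count in any library. The endothelial sum, mostly Tek, was 2.25 CPM (control), 6.21 (siDNMT1), 3.18 (OB) and 7.81 (the library labelled siDNMT1_OB). The part of other cell types in the values below was not tested, and fewer cells of a type and less RNA per cell cannot be told apart in such libraries.

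The member genes lie at 4 places in the genome (build GRCm38). Ecm2, Aspn, Omd and Ogn follow each other on the plus strand of chromosome 13 within 119692 bases, with Ecm2 at chr13:49504810-49532789, Aspn at chr13:49544443-49567565, Omd at chr13:49582462-49592822 and Ogn at chr13:49608046-49624501. Dcn (chr10:97479609-97518143), Lum (chr10:97565128-97572703) and Kera (chr10:97606879-97613692) form another row on the plus strand of chromosome 10. Prelp (chr1:133910304-133921414, minus strand) and Fmod (chr1:134037254-134048277, plus strand) are neighbours on chromosome 1 that point away from each other. Bgn (chrX:73483602-73495933, plus strand) stands apart from the other members on the X chromosome.

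The sequence just before the start site is shown for the 4 genes of the chromosome 13 row, because their mRNAs were higher together after induction. These are the 250 bases before the RefSeq start, on the strand of the gene, from GRCm38.p6, and capitals mark each CpG, the dinucleotide that DNMT1 methylates. The windows lie at chr13:49504560-49504809 for Ecm2, chr13:49544193-49544442 for Aspn, chr13:49582212-49582461 for Omd and chr13:49607765-49608014 for Ogn, where the RefSeq start is 31 bases upstream of the start in the count table.
Ecm2: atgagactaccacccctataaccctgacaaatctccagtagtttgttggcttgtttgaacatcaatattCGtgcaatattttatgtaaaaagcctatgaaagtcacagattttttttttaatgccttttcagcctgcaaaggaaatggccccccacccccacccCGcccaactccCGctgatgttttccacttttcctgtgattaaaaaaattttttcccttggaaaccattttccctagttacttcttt
Aspn: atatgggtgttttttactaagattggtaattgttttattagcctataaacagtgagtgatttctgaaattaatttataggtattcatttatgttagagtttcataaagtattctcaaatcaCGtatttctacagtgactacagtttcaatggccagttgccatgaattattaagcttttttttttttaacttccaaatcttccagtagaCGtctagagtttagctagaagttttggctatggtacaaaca
Omd: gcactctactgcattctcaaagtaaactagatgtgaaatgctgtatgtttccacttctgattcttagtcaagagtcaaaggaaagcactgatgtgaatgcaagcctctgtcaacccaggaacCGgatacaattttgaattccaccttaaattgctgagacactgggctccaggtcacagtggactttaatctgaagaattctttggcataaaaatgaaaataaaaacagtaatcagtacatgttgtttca
Ogn: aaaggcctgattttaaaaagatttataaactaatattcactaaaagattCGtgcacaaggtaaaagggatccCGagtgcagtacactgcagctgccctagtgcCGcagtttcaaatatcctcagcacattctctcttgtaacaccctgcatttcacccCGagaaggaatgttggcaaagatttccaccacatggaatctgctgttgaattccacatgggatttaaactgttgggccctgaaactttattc

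The same windows are shown for the neighbours Prelp (chr1:133921402-133921651, minus strand) and Fmod (chr1:134037004-134037253, plus strand), because their mRNAs had log2 fold changes of opposite sign with induction, although OB held only 6 counts of Fmod. The RefSeq start of Prelp is 13 bases downstream of that in the count table.
Prelp: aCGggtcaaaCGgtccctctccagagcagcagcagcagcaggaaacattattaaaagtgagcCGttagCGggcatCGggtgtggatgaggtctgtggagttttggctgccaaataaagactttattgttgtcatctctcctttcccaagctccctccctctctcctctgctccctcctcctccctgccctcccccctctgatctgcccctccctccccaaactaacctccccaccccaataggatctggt
Fmod: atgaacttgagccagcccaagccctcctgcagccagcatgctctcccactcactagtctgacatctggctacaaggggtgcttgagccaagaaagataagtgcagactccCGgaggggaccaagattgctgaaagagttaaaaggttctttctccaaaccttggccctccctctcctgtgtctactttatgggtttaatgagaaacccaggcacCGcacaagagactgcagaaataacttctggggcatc

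Ecm2, Aspn, Omd and Ogn had 3, 2, 1 and 4 CpGs in these windows, and Prelp and Fmod had 5 and 2. RefSeq windows were matched for 8 of the 10 members (all but Dcn and Lum), and their CpG counts ran from 1 in Omd and Kera to 7 in Bgn, against a median of 6 over 32851 windows of 27025 genes. Bgn was the sole member above that median. For Kera the RefSeq start is 326 bases downstream of that in the count table, so its window lies inside the gene as counted. Of 4 motifs searched on both strands, TATAAA (the TATA box) occurred in Aspn and Ogn and in 12.4% of all windows. TGTTCT, 1 arm of the palindrome bound by the glucocorticoid receptor, occurred in Bgn alone and in 16.1% of all windows. The full palindrome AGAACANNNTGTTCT, which contains that arm, was in no member and in 0.00913% of windows, and TGANTCA (the AP-1 site) was in no member and in 6.75%. These matches describe letters in the windows, and no methylation or binding was measured in the files used here.

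To compare the members with each other, CPM were divided by the summed exon length of the gene in the count table, which gives CPM per kb. The lengths include every annotated exon, and a gene with exons that these cells do not use has its level understated. In control, Bgn was the highest at 329 CPM per kb, followed by Ogn at 87.0 and Aspn at 56.5. Prelp at 5.71 and Omd at 5.54 came next, and Dcn at 1.16, Ecm2 at 0.474, Lum at 0.392 and Fmod at 0.390 were low. The counting intervals of Prelp and Omd overlapped in control, and so did those of Ecm2, Lum and Fmod. By their mean level over the 4 libraries, Bgn, Ogn and Aspn were above 99.3%, 98.7% and 98.4% of the tested genes, Prelp and Omd above 76.6% and 73.4%, and Ecm2, Lum, Dcn and Fmod above 23.0%, 10.2%, 9.30% and 3.66%. Decorin, an abundant SLRP of many connective tissues, was thus among the low genes of these cells.

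With induction the order changed. Summed over the 10 members, the level was 486 CPM per kb (control), 598 (siDNMT1), 1581 (OB) and 1180 (the library labelled siDNMT1_OB). Bgn held 67.7% of this sum in control and 66.2% in siDNMT1, but 30.5% in OB and 45.2% in the library labelled siDNMT1_OB. Ogn went from 17.9% in control to 34.9% in OB, and Aspn from 11.6% to 31.2%. In OB, Ogn (553 CPM per kb) and Aspn (493) stood above Bgn (482), with counting intervals that did not overlap. These intervals do not cover error in the exon lengths, which were 2566, 2354 and 6099 bases, and the order rests on them. Before division by length, Bgn was the highest in OB at 2938 CPM, with Ogn at 1418 and Aspn at 1161. In the library labelled siDNMT1_OB Bgn was again first, at 534 CPM per kb, with Ogn at 313 and Aspn at 276.

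**Figure D1:**
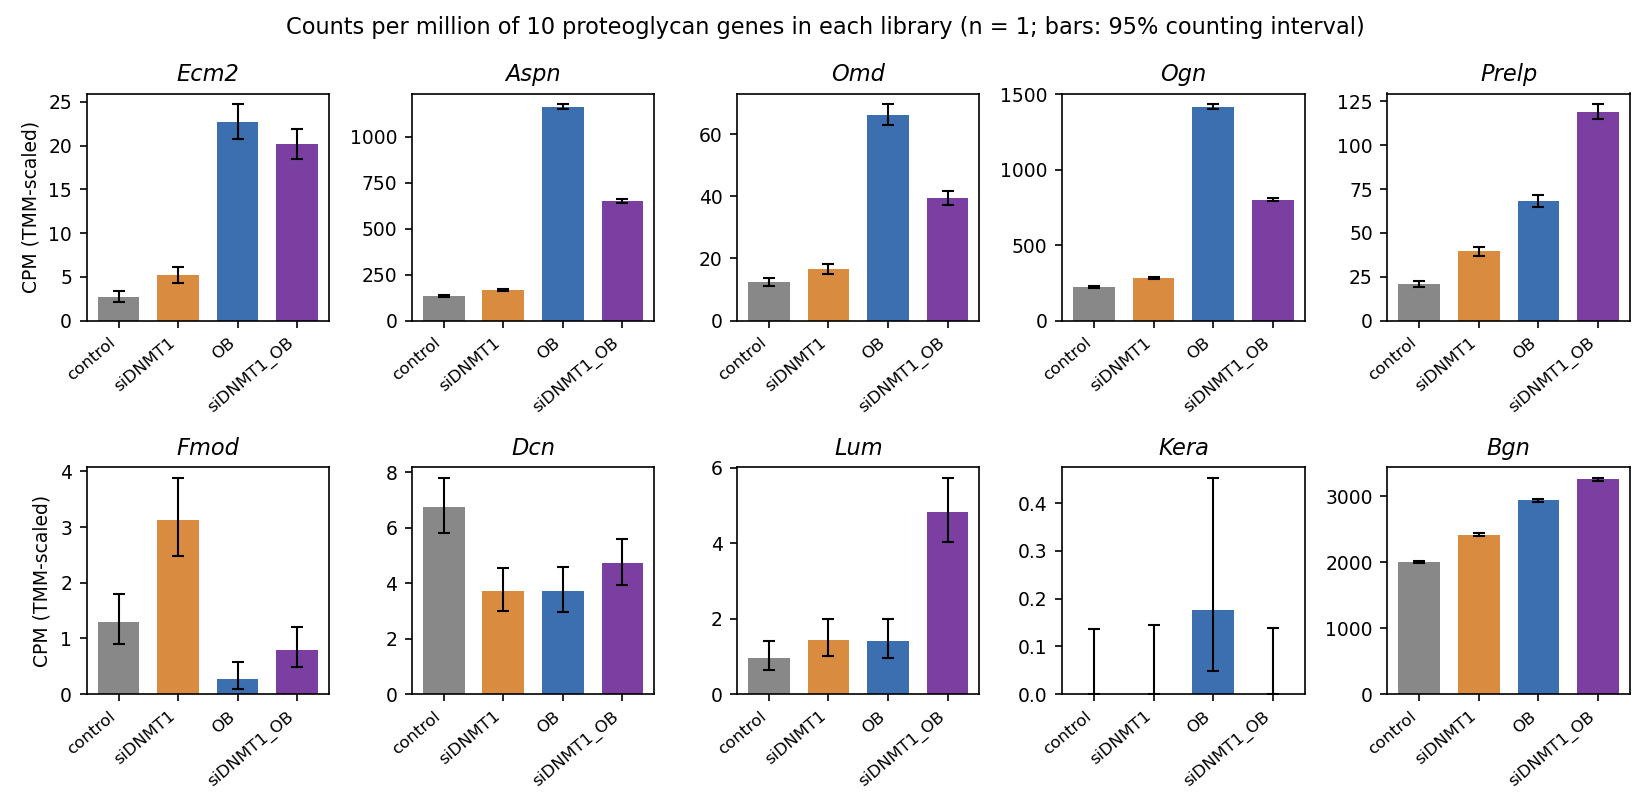
CPM of each member (y axis, linear and different for each gene) in the 4 libraries (x axis), with 95% counting intervals and 1 library a group. Ecm2, Aspn, Omd and Ogn are highest in OB, Prelp, Lum and Bgn in the library labelled siDNMT1_OB, Fmod in siDNMT1 and Dcn in control, and Kera has counts in OB alone.

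To see what OB induction did to the SLRP genes, OB was compared with control, and the library labelled siDNMT1_OB with siDNMT1. These comparisons share no library. A gene was called when its log2 fold change, computed with a prior count of 2, was at least 1 in size and its counting interval excluded 0. With control siRNA, 5 of 9 members were higher (Ecm2, Aspn, Omd, Ogn and Prelp) and 1 was lower (Fmod, which passed the filter only through siDNMT1), against 10.6% of tested genes called higher and 7.1% called lower. With DNMT1 siRNA, 6 members were higher (these 5 and Lum) and Fmod was lower, against 6.82% and 2.71% of tested genes. The median log2 fold change of the 9 members was 1.72 and 1.51, beside 0.0083 and 0.0010 over all tested genes. The same 5 members were called higher in both comparisons, as were 5.84% of all tested genes. Because the members were chosen with earlier results of these data known, these shares are a description.

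Ogn encodes osteoglycin, an SLRP first isolated from bone. It had 223 CPM (control), 281 (siDNMT1), 1418 (OB) and 802 (the library labelled siDNMT1_OB), so both induced libraries stood above both uninduced ones. The CPM were 6.35 times higher in OB than in control (log2 2.67, 95% counting interval 2.63 to 2.71), and 2.85 times higher with DNMT1 siRNA (1.51, 1.47 to 1.55).

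Aspn encodes asporin, which carries a run of aspartates, binds collagen and holds back TGF-beta signalling. Its level was 133 CPM (control), 168 (siDNMT1), 1161 (OB) and 651 (the library labelled siDNMT1_OB). The ratio of OB to control was 8.73 (log2 3.12, 3.08 to 3.18), the largest positive log2 fold change of any tested member, and with DNMT1 siRNA the ratio was 3.87 (1.95, 1.91 to 2.00).

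Omd, the gene of the bone keratan sulfate proteoglycan osteoadherin, was at 12.5 CPM (control), 16.7 (siDNMT1), 66.2 (OB) and 39.4 (the library labelled siDNMT1_OB). Its log2 fold change with induction reached 2.40 (2.24 to 2.58) with control siRNA and 1.23 (1.08 to 1.40) with DNMT1 siRNA. Ecm2, the gene of a matrix protein with leucine-rich repeats, had 73 counts (control), 133 (siDNMT1), 513 (OB) and 540 (the library labelled siDNMT1_OB), or 2.69, 5.19, 22.7 and 20.2 CPM. Its induction effects were 3.04 (2.72 to 3.45) and 1.94 (1.68 to 2.24). In all 4 genes the induced libraries were above the uninduced ones, and the effect was smaller with DNMT1 siRNA. Induction effects were smaller with DNMT1 siRNA over all tested genes too, with an SD of 0.70 across genes against 0.95 with control siRNA.

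Within 500 kb of the row, 9 other genes passed the filter, and with control siRNA 0 of them were called higher and 1 lower (Iars, an isoleucine tRNA ligase, at −1.06). With DNMT1 siRNA 0 were called in either direction. Beside the 10.6% and 6.82% of all tested genes called higher, these counts over 9 genes do not set the neighbours apart from other genes. Their median log2 fold change stood at −0.22 with control siRNA and at −0.04 with DNMT1 siRNA, and the highest with control siRNA was 0.19, in Cenpp. Cenpp encodes a centromere protein and spans all 4 members on the opposite strand, from 49464023 to 49652785. It had 283 counts (control), 358 (siDNMT1), 269 (OB) and 347 (the library labelled siDNMT1_OB). It shares 7 exon bases with Aspn and none with Ecm2, Omd or Ogn. Whether counting used strand was not stated in the sources used here.

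**Figure D2:**
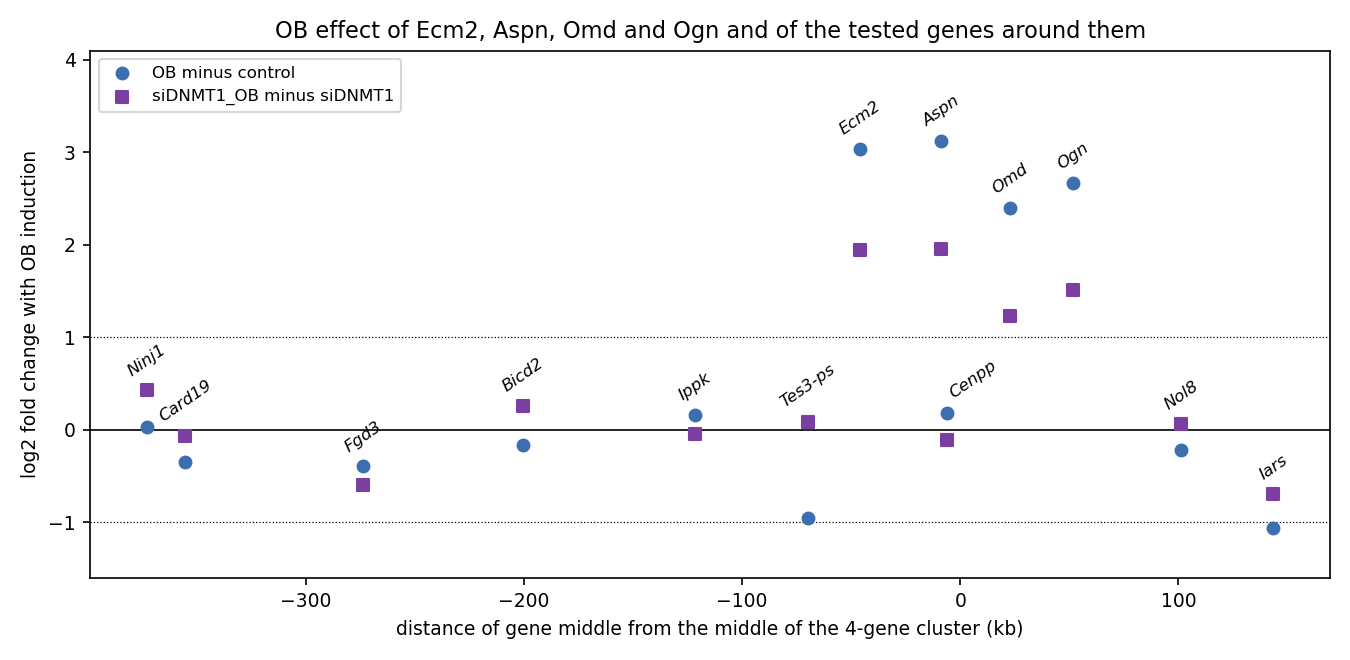
Log2 fold change with OB induction (y axis) of Ecm2, Aspn, Omd and Ogn and of the 9 other tested genes within 500 kb, by distance in kb from the middle of the row (x axis), for OB minus control (circles) and for siDNMT1_OB minus siDNMT1 (squares). The 4 members lie between 1.23 and 3.12, and with control siRNA the highest other gene lies at 0.19.

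Prelp encodes an SLRP with a basic, heparin-binding end that ties collagen to basement membranes. It was at 20.6 CPM (control), 39.5 (siDNMT1), 68.0 (OB) and 119 (the library labelled siDNMT1_OB), and no 2 of these intervals overlapped. Its induction effect reached 1.72 (1.58 to 1.86) with control siRNA and 1.59 (1.49 to 1.70) with DNMT1 siRNA. Prelp shares 350 exon bases with the antisense gene Gm15851, which had 1 count in every library.

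Fmod encodes fibromodulin, a keratan sulfate proteoglycan abundant in tendon and cartilage that guides collagen cross-linking. It had 35 counts (control), 80 (siDNMT1), 6 (OB) and 21 (the library labelled siDNMT1_OB), or 1.29, 3.12, 0.265 and 0.785 CPM. Both induced libraries were below both uninduced ones, and the gene passed the filter only through siDNMT1. The log2 fold changes with induction were −1.99 (−3.82 to −1.02) and −1.89 (−2.76 to −1.28), close to each other but wide in interval. Fmod and its neighbour Prelp had values of opposite sign, within the limit that the filter sets on Fmod. Of the 12 other tested genes within 500 kb of them 1 was called higher with control siRNA (Atp2b4), 2 with DNMT1 siRNA (Atp2b4 and Sox13) and 0 lower with either. Of all tested genes 10.6% and 6.82% were called higher, and 7.1% and 2.71% lower. Beside these shares, the counts over 12 genes do not set the neighbours apart from other genes.

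Lum encodes lumican, which keeps collagen fibrils thin and even in the cornea and is made by many mesenchymal cells. It had 26 counts (control), 37 (siDNMT1), 32 (OB) and 129 (the library labelled siDNMT1_OB). The first 3 libraries had overlapping intervals, at 0.959, 1.44 and 1.42 CPM, and the last stood apart at 4.82 CPM (4.02 to 5.73). The induction effect was 0.53 (−0.23 to 1.37) with control siRNA, which includes 0, and 1.69 (1.20 to 2.31) with DNMT1 siRNA.

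Dcn encodes decorin, which binds collagen and TGF-beta and carries 1 sugar chain. It was at 6.75 CPM (control, 183 counts), 3.71 CPM (siDNMT1, 95 counts), 3.71 CPM (OB, 84 counts) and 4.71 CPM (the library labelled siDNMT1_OB, 126 counts). Control was above the other libraries, which overlapped in their intervals. The effect of induction came to −0.85 (−1.25 to −0.48) with control siRNA and to 0.34 (−0.05 to 0.74) with DNMT1 siRNA, and neither met the fold threshold. Kera, the gene of keratocan of the cornea, had 0 counts in control, siDNMT1 and siDNMT1_OB and 4 counts in OB (0.177 CPM, 0.0482 to 0.453). The floor of 3 counts was 0.111 to 0.117 CPM in the libraries without a count. Their counting intervals reached up to 0.136 to 0.144 CPM and overlapped that of OB, so a difference was not detectable at this depth.

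Bgn encodes biglycan, the best known SLRP of bone, which also binds BMPs and Toll-like receptors. It was at 2007 CPM (control), 2415 (siDNMT1), 2938 (OB) and 3257 (the library labelled siDNMT1_OB). Each library was separate from the others in counting error, but the effects of induction, 0.55 (0.53 to 0.57) with control siRNA and 0.43 (0.42 to 0.45) with DNMT1 siRNA, were under the fold threshold. Bgn was first in CPM per kb in all libraries but OB and, of the 9 tested, it was the member with the smallest range over the libraries (0.70 on the log2 scale, against 3.22 in Fmod and 3.12 in Aspn).

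**Figure D3:**
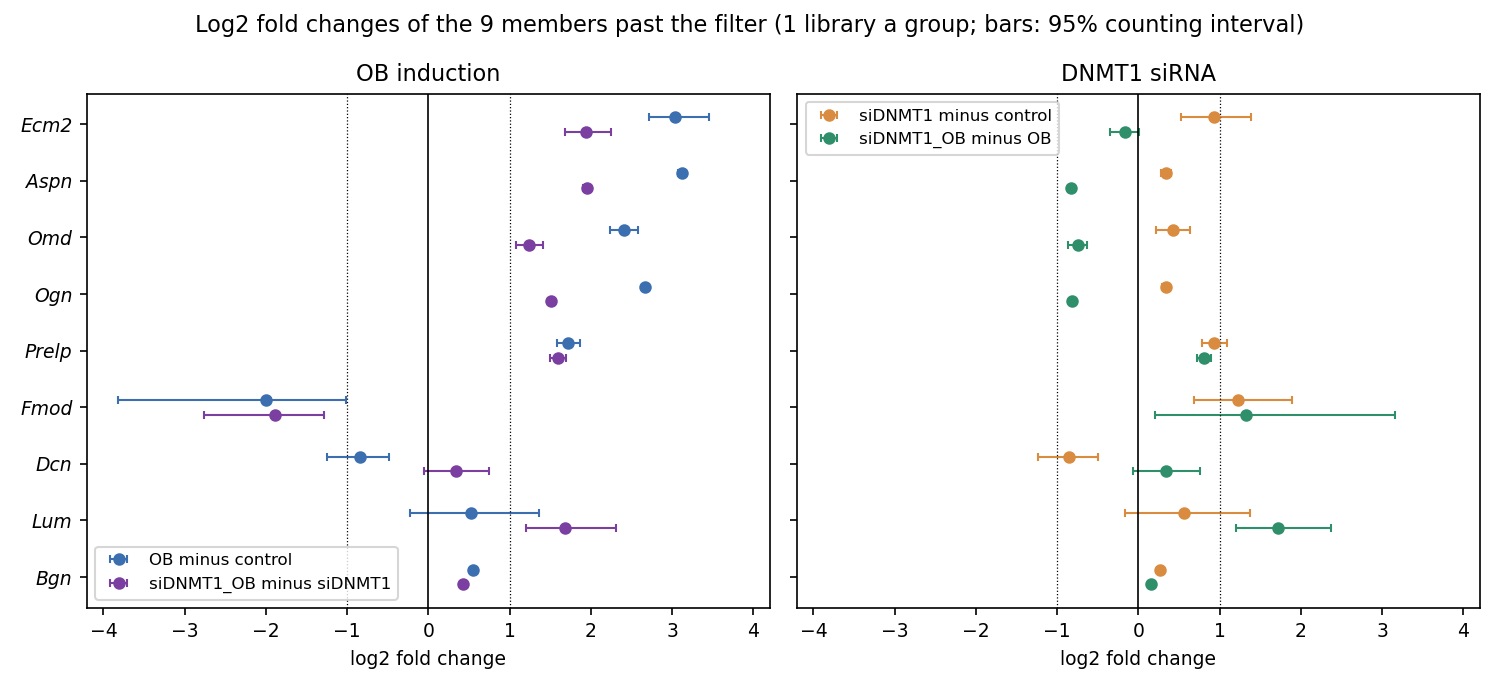
Log2 fold change (x axis) of the 9 members past the filter, with 95% counting intervals and dotted lines at the fold threshold of 1, for OB induction (left) and for DNMT1 siRNA (right). With induction Ecm2, Aspn, Omd, Ogn and Prelp lie beyond 1 and Fmod beyond −1 with either siRNA, and with DNMT1 siRNA Aspn, Omd and Ogn lie above 0 in untreated cells and below 0 after induction.

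To give the induction effect a test, an additive model was fitted to all 4 libraries with edgeR's quasi-likelihood method. It has 3 coefficients and 1 residual degree of freedom, and it treats any difference between the siRNAs in the induction effect as noise. In this fit 6 of 9 members passed an adjusted p of 0.05 and the fold threshold, 5 higher and 1 lower, beside 11.3% of all tested genes, and 8 of 9 had an unadjusted p under 0.05, beside 38% of all. The edgeR estimates were 1.66 for Prelp (adjusted p = 0.00525), 2.54 for Aspn (adjusted p = 0.0107), 2.49 for Ecm2 (adjusted p = 0.0115), 2.09 for Ogn (adjusted p = 0.0135) and 1.82 for Omd (adjusted p = 0.0187). Fmod had −2.08 (edgeR adjusted p = 0.0207), but it passed the filter only through an uninduced library, so this value and its call are not support for a fall. Bgn had 0.49 (edgeR adjusted p = 0.0301), which is under the fold threshold, and Lum (1.23, adjusted p = 0.0801) and Dcn (−0.26, adjusted p = 0.610) did not pass. Separate cultures are not stated in the labels, so these p-values measure the spread between these libraries alone.

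To see what DNMT1 siRNA did, siDNMT1 was compared with control (the untreated pair), and the library labelled siDNMT1_OB with OB (the OB pair). In the untreated pair 1 of 9 members was called higher (Fmod) and 0 lower, against 1.87% and 1.33% of tested genes. Fmod passed the filter only through siDNMT1, the library in which it was highest (mean 1.37 CPM over all libraries and 0.780 over the other 3), so its call here is not support for a difference. In the OB pair 2 were called higher (Fmod and Lum) and 0 lower, against 2.35% and 1.36%. The median of the members was 0.42 and 0.15, beside −0.0014 and 0.0129 over all tested genes. The median of the OB pair turned negative with other filters, to −0.46 at a mean CPM of at least 5, where 0 members were called in either pair, and to −0.0099 with no filter. In the additive edgeR fit 0 of 9 members passed for DNMT1 siRNA, and 3 (Prelp, Fmod and Lum) had an unadjusted p under 0.05. The same fit called 0% of all tested genes, with 8.68% at an unadjusted p under 0.05, and the smallest adjusted p of a member was 0.169, in Prelp. DESeq2 gave Prelp an adjusted p of 0.0110 at a log2 fold change of 0.87, and edgeR with no filter gave it 0.00049, so in those fits the fold threshold alone kept Prelp from being called.

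Prelp was above 0 with DNMT1 siRNA in both pairs, at 0.93 (0.78 to 1.09) and 0.81 (0.72 to 0.90), just under the fold threshold in both. Fmod, within the limit its filter sets, had 1.23 (0.68 to 1.89) without induction and 1.33 (0.21 to 3.16) in the OB pair. Bgn was also above 0 in both pairs, at 0.27 (0.25 to 0.28) and 0.15 (0.13 to 0.16). Prelp and Bgn are among 9.91% of tested genes that were higher in both pairs with counting intervals that excluded 0. Lum was higher in the OB pair, at 1.71 (1.20 to 2.37), and had 0.55 (−0.17 to 1.37) in the untreated pair.

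Aspn, Omd and Ogn took opposite signs in the pairs. In untreated cells their log2 fold changes were 0.34 (0.27 to 0.40), 0.42 (0.21 to 0.63) and 0.33 (0.28 to 0.38). In the OB pair they were −0.84 (−0.86 to −0.81), −0.75 (−0.86 to −0.63) and −0.82 (−0.85 to −0.80). None met the fold threshold in either pair, and 4.73% of tested genes were above 0 without induction and below 0 in the OB pair with both intervals excluding 0. The OB pair minus the untreated pair was −1.17 in Aspn, −1.17 in Omd, −1.15 in Ogn and −1.10 in Ecm2, where 2.95% of tested genes were at or below −1. Without induction Ecm2 had 0.93 (0.53 to 1.38), and in the OB pair −0.17 (−0.35 to 0.01). In Lum and Dcn the same difference was 1.16 and 1.19, where 3.27% of tested genes were at or above 1, and in Prelp, Bgn and Fmod it was −0.12, −0.12 and 0.10. Dcn was lower with DNMT1 siRNA in untreated cells, at −0.85 (−1.24 to −0.50), and had 0.34 (−0.07 to 0.76) in the OB pair. With 1 library a group these differences have no test.

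**Figure D4:**
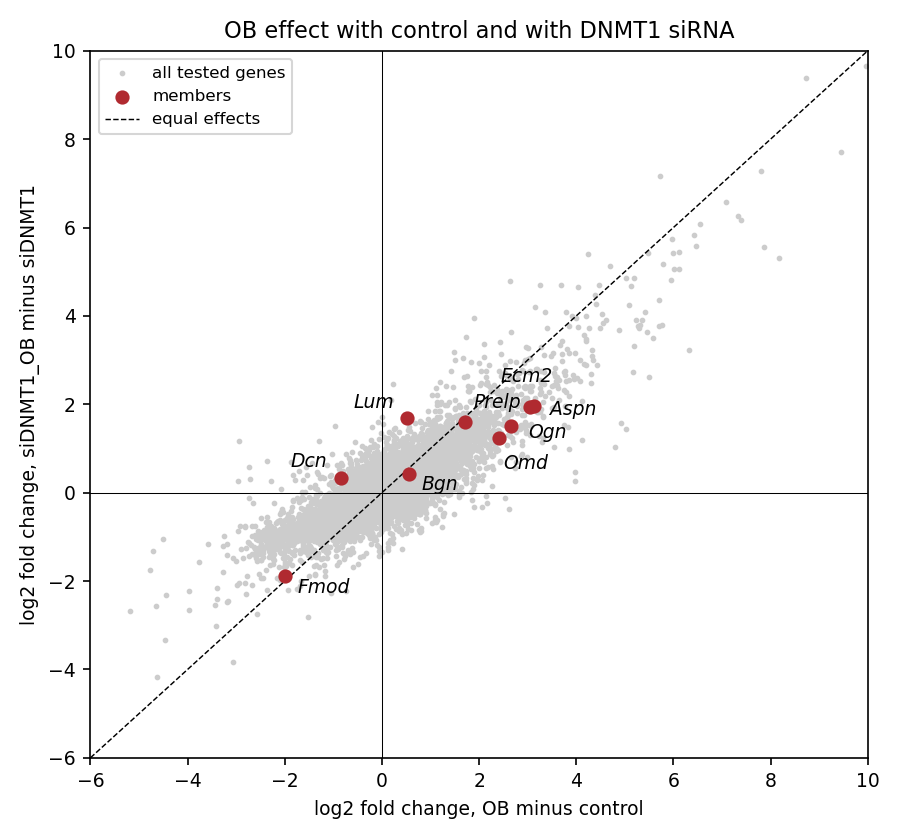
Log2 fold change with OB induction with control siRNA (x axis) and with DNMT1 siRNA (y axis) for the 13233 tested genes (grey) and the 9 members (red), with a dashed line where both effects are equal. Ecm2, Aspn, Omd and Ogn lie below the line, Lum and Dcn above it, and Prelp, Fmod and Bgn near it.

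At the prior count of 2 the member with the widest range over the libraries was Fmod (3.22 on the log2 scale), while at a prior count of 5 it was Aspn (3.12, against 2.85 in Fmod). The tested genes whose centred log2 CPM over the 4 libraries were nearest to Fmod were Gm3985, a long non-coding RNA (Euclidean distance 0.34), Tubb3, a neuronal beta-tubulin (0.34), and Peg10, an imprinted gene derived from a retrotransposon (0.40). Gm3985 had few counts, 28 (control), 64 (siDNMT1), 6 (OB) and 22 (the library labelled siDNMT1_OB), and like Fmod it passed the filter only through siDNMT1. Tubb3 had 217 counts (control), 360 (siDNMT1), 44 (OB) and 126 (the library labelled siDNMT1_OB), and Peg10 had 544, 816, 95 and 279 in the same order. These genes were picked for this likeness, so their sharing of the order of libraries with Fmod is a description. Among the members, Dcn was the nearest to Fmod, at a distance of 2.34.

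Other genes of the SLRP family, listed by name, were in part too low to test, and 5 of 9 passed the filter. With control siRNA, Epyc, Chadl and Tsku were called higher in OB, and with DNMT1 siRNA Epyc and Chadl were, beside 10.6% and 6.82% of all tested genes. Epyc, the gene of epiphycan of growth cartilage, lies beside Kera on chromosome 10 and had 12 counts (control), 18 (siDNMT1), 46 (OB) and 56 (the library labelled siDNMT1_OB), for log2 fold changes of 2.02 (1.26 to 3.25) and 1.48 (0.79 to 2.43) with induction. It passed the filter only through the induced libraries, at 2.03 CPM (OB) and 2.09 (the library labelled siDNMT1_OB), against 0.442 (control) and 0.703 (siDNMT1). The calls of Epyc are thus not support for a difference. Chadl, which binds collagen, had 1.24 and 1.08, and Tsku, a secreted modulator of BMP and Wnt signals, had 1.11 and 0.72. Podn, the gene of podocan, was called higher in the untreated pair (1.58, 1.12 to 2.15), as were 1.87% of tested genes, and had 0.91 in the OB pair, and Podnl1 was not called. Of the genes under the filter, Nyx had 0 counts in control and siDNMT1, 10 in OB and 16 in the library labelled siDNMT1_OB. Chad had 8 counts (control), 19 (siDNMT1), 26 (OB) and 35 (the library labelled siDNMT1_OB), while Optc had at most 8 in any library and Nepn had 0 in all.

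The counts of the further lists stand beside these shares of all tested genes. With induction 10.6% were called higher and 7.1% lower with control siRNA, and 6.82% and 2.71% with DNMT1 siRNA. In the untreated pair 1.87% were called higher and 1.33% lower, and in the OB pair 2.35% and 1.36%. Of the enzymes that build the sugar chains, 8 of 9 genes for the linker that joins chains to the core protein, and for its precursors, passed the filter, and 0 were called in any of the 4 comparisons. Of 14 tested genes for chondroitin and dermatan sulfate, 2 were called higher with induction with either siRNA, a share close to that of all tested genes with control siRNA. These were Chst11, a chondroitin sulfotransferase (1.89 with control siRNA and 1.68 with DNMT1 siRNA), and Chst15 (1.35 and 1.48). Chst3, which sulfates chondroitin at another position, was called higher with DNMT1 siRNA without induction (1.01) and in the OB pair (1.02, but 0.987 and not called with total count scaling). Of 5 tested keratan sulfate genes, the sulfotransferase gene Chst1 was called lower with induction, at −2.39 (−2.63 to −2.18) and −1.75 (−1.98 to −1.54), and 0 were called higher. The counts ran 1236 (control), 722 (siDNMT1), 195 (OB) and 223 (the library labelled siDNMT1_OB), so both induced libraries were below both uninduced ones.

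Of the fibrillar collagens, 9 of 9 were tested, and Col5a3 (1.10 with control siRNA and 1.85 with DNMT1 siRNA) and Col11a1 (2.73 and 2.01), which sit in the core of fibrils, were called higher with induction with either siRNA. Col11a2 was called higher with induction with control siRNA (1.50, against 0.51 with DNMT1 siRNA) and in the untreated pair (1.41). Col2a1, the cartilage collagen, was called higher in the OB pair (1.32). The other 5 fibrillar collagens were not called in any comparison. Of 10 tested fibril-associated proteins outside the family, 7 were called higher with control siRNA and 8 with DNMT1 siRNA, with a median of 1.87 and 1.50. They included Col6a1 (1.73 and 1.07) and Col6a2 (2.03 and 1.20), chains of the collagen VI microfibrils that bind biglycan and decorin, Matn2 (2.60 and 1.94), Comp (2.64 and 1.61), Tnxb (2.88 and 1.76), Tnc (1.49 and 1.72) and Col14a1 (2.00 and 2.94). Col14a1 passed the filter only through the library labelled siDNMT1_OB, where it was highest (mean 1.10 CPM, and 0.490 over the other 3), so its calls are not support for a difference. Col12a1 was the eighth with DNMT1 siRNA (1.39, against 0.95 with control siRNA). Col14a1 was also called higher in the OB pair (1.51), with the same limit.

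Of 8 tested genes for proteases and helpers that cut SLRPs or procollagens, Pcolce2 (2.05), Mmp2 (1.21), Mmp14 (1.16) and Adamts4 (2.21) were called higher in OB than in control, and Tll1 (1.42) and Adamts4 (1.08) with DNMT1 siRNA. Of 13 tested growth factors and receptors that SLRPs bind, Egfr was called higher with induction (2.28 and 1.41), Bmp4 was called lower with DNMT1 siRNA (−1.05, against −0.72 with control siRNA), and Ctgf was called higher in the OB pair (1.59). Of 3 tested other proteoglycans, Vcan, the gene of the large chondroitin sulfate proteoglycan versican, was called higher with induction, at 2.78 (2.76 to 2.81) with control siRNA and 1.96 (1.93 to 1.98) with DNMT1 siRNA. Vcan was at 541 CPM (control), 533 (siDNMT1), 3728 (OB) and 2069 (the library labelled siDNMT1_OB). Of 6 tested tendon markers, Tnmd was called higher with induction (1.95 and 1.56) and in both siDNMT1 pairs (1.52 and 1.13). Egr1 (−3.19 and −2.47) and Egr2 (−2.36 and −2.21) were called lower with induction, and Scx was called lower with control siRNA (−1.44, against −0.39 with DNMT1 siRNA).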

How the data were processed

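Poly(A) RNA of 4 C3H10T1/2 samples was sequenced from both ends after TruSeq library preparation. The authors deposited raw counts per gene, whole numbers with no normalization. The submitters' processing notes name Trimmomatic, HISAT2, featureCounts and the build mm10, without versions. Strand use and the treatment of multi-mapping reads were not given in the sources used here. Of 54409 genes shared with GENCODE M21, 53462 (98.3%) had the same position, and all 10 members did.

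TMM factors (0.991 to 1.01) were computed in edgeR 4.0.16 (R 4.3.3) on genes whose mean CPM reached 1, and 13233 of 54532 genes were tested. Depth was 22296046 to 27367792 counts per library. Log2 fold changes used a prior count of 2. The 95% intervals were exact, Clopper-Pearson for log2 fold changes and Poisson for the CPM of a library. They and the floor of 3 counts cover counting error only, since reads carried no molecular identifiers. With 1 library per group the 4 pairwise comparisons have no test. The additive edgeR quasi-likelihood fit used all 4 libraries and Benjamini-Hochberg adjustment over all tested genes, and DESeq2 1.42.0 was the alternative. Other alternatives were the scaling, the prior count, the filter and the call rule. The scripts were tested on simulated data. Members and lists were chosen with earlier results of these data known. Named genes were all members, Dnmt1, genes overlapping a member, the other SLRP genes, the called genes of the companion lists, and the 3 genes nearest to the member of widest range. Neighbouring genes and single cell type markers were named after their values were seen. Promoter windows came from RefSeq (GRCm38.p6).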

Additional observations from a re-analysis of the deposited data

Results flagged for a closer look

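The DNMT1 siRNA effect took opposite signs in untreated and in induced cells for 3 genes of the chromosome 13 row. The OB pair minus the untreated pair was −1.15 for Ogn, −1.17 for Omd and −1.17 for Aspn on the log2 scale. Of all tested genes 4.73% were above 0 in the untreated pair and below 0 in the OB pair with both counting intervals excluding 0. The collagen VI genes Col6a1 (0.30 and −0.36) and Col6a2 (0.41 and −0.42) were among them, while Col6a3 was below 0 in both pairs (−0.12 and −0.25). Each value has 1 library a group, and the difference was not tested. These values rest on the library labelled siDNMT1_OB, in which Dnmt1 was not lower than in OB (log2 fold change 0.13).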

How the results depend on the processing

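Of 294 member values recomputed under other scalings, prior counts and filters, 282 moved by less than counting error, 12 moved by more and 0 of the called values changed sign. A filter decides which members are kept and leaves the value of a kept member unchanged. The values recomputed under other filters were therefore the same by construction, and only those under other scalings and prior counts could move. A filter of a mean CPM of at least 5 left out Fmod, Lum and Dcn. It gave 0 members higher in the untreated pair, 0 higher in the OB pair and 0 lower with induction with either siRNA. With induction with DNMT1 siRNA 5 members were higher, against 6 in the main setting, because Lum was left out. The medians under this filter were −0.46 in the OB pair, 2.53 with induction with control siRNA and 1.55 with DNMT1 siRNA. TMM over all genes with a count, an alternative added after the data were seen, gave a median of 0.16 in the OB pair. In the additive fit for induction, DESeq2 called 6 members (and 10.5% of all genes it tested), the fit with no filter 7 (Lum added; 7.67%) and the stricter filter 5 (9.64%). For DNMT1 siRNA each alternative called 0 members at the fold threshold, although Prelp had an adjusted p of 0.0110 with DESeq2 and of 0.00049 in edgeR with no filter. Over all tested genes that count was 0 in the main edgeR fit, 28 with upper quartile scaling, 91 with DESeq2, 197 with no filter and 0 with the stricter filter. No scaling (total count, upper quartile or DESeq2 size factors) moved the median of all genes by over 0.1. Outside the members, total count and upper quartile scaling ended the call of Chst3 in the OB pair (0.987 with total counts, against 1.02) and called Tgfb2 higher in the untreated pair (1.02 with upper quartile scaling, against 0.991). No paired analysis was possible because each group held 1 library and the labels give no shared replicate numbers, and for the same reason no library could be left out of its own comparison. Depth limits what can be said of Kera, Fmod and Lum, which had few counts.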
